A study of Mus musculus with 28 samples.

Results

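The transcripts described here are 8 genes of T cells and natural killer (NK) cells, Cd3d, Cd3e, Cd3g, Cd8a, Lck, Il2rb, Nkg7 and Gzmb, taken by gene symbol from 2 expression tables of mouse kidney. The whole-kidney table listed 6 of the 8 among its 12315 genes, and Cd3d and Gzmb were not analysed there. The table of sorted kidney macrophages listed all 8 among 10523 genes, and 12954 genes were listed in either table. In whole kidney the 6 transcripts read as a gauge of lymphocytes in the tissue, and in sorted macrophages all 8 read as a gauge of lymphocyte RNA carried along with the sorted cells.

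The study profiled RNA of female C57BL/6 littermates aged 7 to 9 months in 4 genotypes. Double mutants lacked both Fcgr2b and Rhbdf2 (FcR2b-/- Rhbdf2-/- in the labels), Fcgr2b-/- mice lacked the first gene, Rhbdf2-/- mice lacked the second, and wild-type mice lacked neither. Each genotype had 4 libraries of whole perfused kidney and 3 libraries of kidney macrophages, sorted after collagenase digestion and a Percoll spin as CD45+F4/80hiCD11b+Ly6G-Ly6C- cells. Fcgr2b encodes an IgG receptor that restrains B cells and myeloid cells, and mice without it develop a lupus-like disease with nephritis. Rhbdf2 encodes iRhom2, a partner that helps ADAM17 reach the cell surface and shed TNF and EGF receptor ligands. The gate names no lineage marker of T or NK cells, although NK cells can carry CD11b and some T and NK cells carry Ly6C. Whether every library comes from its own mouse is not stated in the labels, and p-values therefore speak of the spread among these libraries.

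T cells recognise antigen through a receptor whose signal leaves the membrane through the CD3 chains, and the kinase LCK starts that signal once a co-receptor such as CD8 or CD4 brings it close. NK cells and cytotoxic T cells kill by releasing granules that hold granzymes and are fed by signals of IL-2 and IL-15. In lupus nephritis both kinds of lymphocyte enter the kidney beside macrophages, B cells and plasma cells.

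Cd3d, Cd3e and Cd3g encode the delta, epsilon and gamma chains of CD3 and lie together on chromosome 9 of mm10. Cd3g runs on the minus strand at chr9:44969571-44980431 and Cd3d on the plus strand at chr9:44981792-44987052, with 1361 bases between their starts. Cd3e follows on the minus strand at chr9:44998742-45009590. In the GENCODE annotation Cd3e overlaps the antisense transcript Gm48719 and Gm48720, a transcript on its own strand. No source used here gives the strand rule of the counting, so reads of these transcripts cannot be told apart from those of Cd3e. Cd8a, the alpha chain of the CD8 co-receptor, lies at chr6:71373426-71379171 on the plus strand. Lck lies at chr4:129548343-129573641 on the minus strand and holds the microRNA gene Mir8119. Il2rb, the beta chain shared by the receptors of IL-2 and IL-15, lies at chr15:78480552-78495066 on the minus strand. Nkg7, a membrane protein of cytotoxic granules, lies at chr7:43437072-43438246 on the plus strand, and Gzmb, the protease granzyme B, at chr14:56258855-56262260 on the minus strand.

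The windows around the starts of the 5 members that passed a test in at least 1 comparison are shown because these transcripts carry the differences reported below. Each window holds 300 bases across the annotated start, most of them upstream of it, 5′ to 3′ on the gene's strand, from RefSeq on GRCm38.p6. Capitals mark the letters AGGAAG or CTTCCT, as bound by ETS-type factors, and TGTGGT or ACCACA, as bound by RUNX-type factors, each searched on both strands.
Cd3d (chr9:44981536-44981835, plus strand): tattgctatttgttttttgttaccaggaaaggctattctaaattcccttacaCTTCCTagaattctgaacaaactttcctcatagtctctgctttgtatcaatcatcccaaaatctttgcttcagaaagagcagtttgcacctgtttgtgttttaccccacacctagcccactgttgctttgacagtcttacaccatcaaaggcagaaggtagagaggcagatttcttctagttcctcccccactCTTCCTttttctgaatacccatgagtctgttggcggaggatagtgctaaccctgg
Cd3e (chr9:45009562-45009861, minus strand): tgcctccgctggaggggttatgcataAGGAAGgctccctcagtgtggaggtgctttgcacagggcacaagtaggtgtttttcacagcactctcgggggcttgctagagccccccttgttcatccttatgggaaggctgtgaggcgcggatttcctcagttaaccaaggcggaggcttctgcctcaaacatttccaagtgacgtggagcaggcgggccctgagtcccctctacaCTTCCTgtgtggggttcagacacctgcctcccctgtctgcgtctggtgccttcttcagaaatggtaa
Cd3g (chr9:44980382-44980681, minus strand): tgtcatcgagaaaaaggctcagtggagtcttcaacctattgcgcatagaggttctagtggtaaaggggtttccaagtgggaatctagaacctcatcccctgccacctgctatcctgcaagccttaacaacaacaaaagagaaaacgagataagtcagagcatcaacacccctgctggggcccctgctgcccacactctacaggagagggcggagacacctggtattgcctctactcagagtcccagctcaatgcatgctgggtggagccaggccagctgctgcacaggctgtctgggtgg
Lck (chr4:129573592-129573891, minus strand): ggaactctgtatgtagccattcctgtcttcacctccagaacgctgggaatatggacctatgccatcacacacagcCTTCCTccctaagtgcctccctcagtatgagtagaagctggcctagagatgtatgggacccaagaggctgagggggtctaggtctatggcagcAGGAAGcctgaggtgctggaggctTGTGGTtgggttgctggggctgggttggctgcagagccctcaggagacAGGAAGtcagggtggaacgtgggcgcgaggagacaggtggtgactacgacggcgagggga
Nkg7 (chr7:43436888-43437187, plus strand): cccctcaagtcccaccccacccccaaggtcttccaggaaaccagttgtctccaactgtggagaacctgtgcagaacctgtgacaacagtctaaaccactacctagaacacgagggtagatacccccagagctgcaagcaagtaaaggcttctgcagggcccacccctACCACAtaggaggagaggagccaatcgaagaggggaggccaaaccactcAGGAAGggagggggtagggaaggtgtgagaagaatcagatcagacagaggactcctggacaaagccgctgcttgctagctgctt
Matching by symbol gave 8 windows for 7 members, with 2 for Lck, and Il2rb is named only. The ETS-type letters stood in 5 of the 8 windows, against 35.4% of all 32851 windows, and the RUNX-type letters in 3 of the 8, against 16.8%. The windows of Cd3d and Cd3e held 2 ETS-type matches each, the Lck window shown held 3 with 1 RUNX-type match, and the Nkg7 window held 1 of each. The Cd3g window held neither. Such a match is a description of the letters and does not show that a factor binds.

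Reads in listed genes numbered 29014860 to 41614097 per kidney library and 30847719 to 34868361 per macrophage library, so 1 read was worth 0.0226 to 0.0354 CPM (read counts scaled to library size) in kidney and 0.0277 to 0.0329 CPM in macrophages. The targeted genes kept reads in their own mutants. Kidney Fcgr2b ranged over 20.7 to 41.5 CPM in double mutants, 23.4 to 34.2 in Fcgr2b-/- kidneys, 31.7 to 35.3 in Rhbdf2-/- kidneys and 29.3 to 35.8 in wild-type kidneys. Kidney Rhbdf2 ranged over 9.29 to 19.7, 25.0 to 37.1, 10.8 to 12.3 and 12.9 to 12.9 CPM in the same order of genotypes. Macrophage Fcgr2b ranged over 455 to 549.9, 256 to 382, 612 to 715 and 539 to 715 CPM and macrophage Rhbdf2 over 18.1 to 26.6, 25.2 to 43.3, 13.4 to 15.5 and 16.2 to 25.0 CPM. Fcgr2b-/- macrophages thus lay below wild-type macrophages for Fcgr2b and Rhbdf2-/- samples lay below wild-type samples for Rhbdf2 in both tables, while kidney Fcgr2b and, in double mutants, Rhbdf2 overlapped wild type. No source used here says which part of each gene the alleles remove, so these levels are no full check of the labels. Titles of the double mutants name iR2ko alone, and the genotype label was followed. Each kidney genotype had a sequencing lane to itself, which means that genotype cannot be told apart from lane. Of 12 macrophage markers all 12 were listed in the sorted cells, with summed levels of 40006 to 46763 CPM in double mutants, 48024 to 63622 in Fcgr2b-/- cells, 27388 to 30646 in Rhbdf2-/- cells and 24087 to 34327 in wild-type cells. Proximal tubule markers summed to 844 to 987, 949.6 to 1691, 1641 to 2351 and 1069 to 2015 CPM in the same order, of which Gatm, the gene of an enzyme of creatine synthesis, averaged 615 ± 101, 934 ± 171, 818 ± 26.7 and 694 ± 21.5 CPM (SD, n = 3 each).

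Whole kidneys of double mutants had the highest mean level of all 6 transcripts, Fcgr2b-/- kidneys came next, and Rhbdf2-/- and wild-type kidneys were lowest. The excess in double mutants lay in 3 of the 4 libraries, while library iR2ko_65 sat at wild-type levels for most members. In the sentences that follow, values run in the order iR2ko_348, iR2ko_370, iR2ko_367 and iR2ko_65 for double mutants, FcR2bko_21, FcR2bko_398, FcR2bko_591 and FcR2bko_594, then iR2ko_334, iR2ko_351, iR2ko_352 and iR2ko_355 for Rhbdf2-/-, and WT_346, WT_356, WT_388 and WT_550. CPM values are the deposited log2 values taken back to the linear scale.

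Cd3e levels were 3.30, 6.12, 10.5 and 0.488 CPM in double mutants, 3.22, 1.30, 3.93 and 0.979 in Fcgr2b-/- kidneys, 0.43, 0.533, 1.29 and 1.59 in Rhbdf2-/- kidneys and 0.441, 1.21, 0.859 and 0.541 in wild-type kidneys. Among the double mutants 3 were high, iR2ko_65 was among the lowest kidneys of the series, and the other genotypes overlapped one another. Cd3g levels were 5.16, 11.6, 21.6 and 1.19 CPM in double mutants, 4.20, 1.81, 4.60 and 1.73 in Fcgr2b-/- kidneys, 0.801, 0.829, 1.81 and 2.87 in Rhbdf2-/- kidneys and 0.736, 1.34, 1.35 and 0.993 in wild-type kidneys. All Fcgr2b-/- kidneys lay above all wild-type kidneys for this chain, and iR2ko_65 lay inside the wild-type range. Lck levels were 7.45, 15.5, 20.9 and 1.66 CPM in double mutants, 9.57, 3.65, 10.2 and 3.86 in Fcgr2b-/- kidneys, 1.73, 1.42, 2.84 and 4.37 in Rhbdf2-/- kidneys and 1.53, 2.46, 2.32 and 1.53 in wild-type kidneys. For the kinase, too, the Fcgr2b-/- group lay clear of the wild-type group, and Rhbdf2-/- kidneys overlapped both.

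Cd8a levels were 3.93, 7.54, 19.4 and 2.15 CPM in double mutants, 2.90, 2.35, 4.67 and 2.40 in Fcgr2b-/- kidneys, 1.39, 1.78, 3.34 and 3.78 in Rhbdf2-/- kidneys and 1.86, 1.76, 2.26 and 2.68 in wild-type kidneys. The co-receptor had the smallest ratio of double-mutant to wild-type means among the 6, with iR2ko_367 and iR2ko_370 above every other kidney. Il2rb levels were 6.79, 15.5, 29.1 and 1.27 CPM in double mutants, 7.09, 3.53, 9.82 and 1.73 in Fcgr2b-/- kidneys, 1.57, 1.51, 2.58 and 4.03 in Rhbdf2-/- kidneys and 1.83, 1.55, 2.38 and 1.81 in wild-type kidneys. The receptor chain was low in iR2ko_65 and in FcR2bko_594, each inside or below the wild-type range. Nkg7 levels were 3.58, 6.36, 14.1 and 0.771 CPM in double mutants, 2.48, 0.961, 2.81 and 0.911 in Fcgr2b-/- kidneys, 0.708, 0.74, 1.70 and 1.25 in Rhbdf2-/- kidneys and 0.53, 0.576, 0.801 and 0.721 in wild-type kidneys. The Fcgr2b-/- kidneys lay above all wild-type kidneys for this granule protein, and so did the double mutants apart from iR2ko_65.

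**Figure D1:**
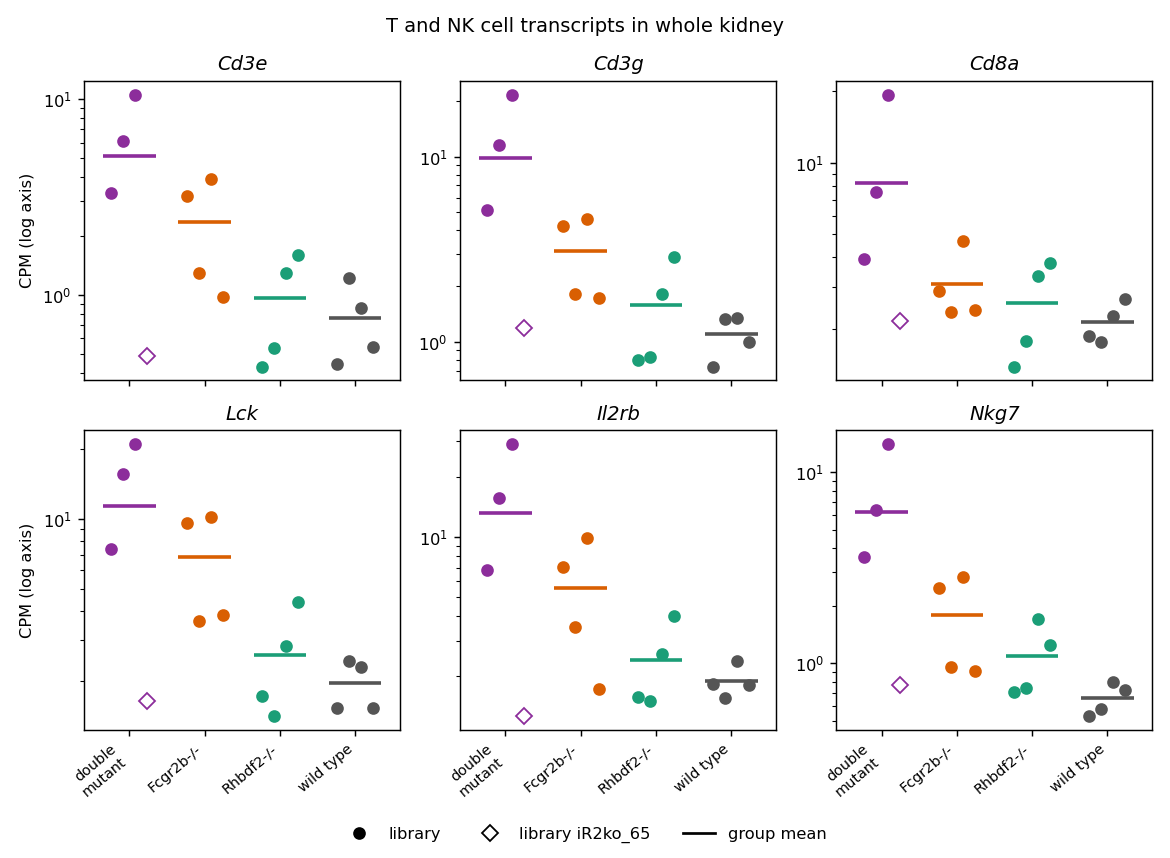
Levels (CPM, log axis) of the 6 transcripts in each whole-kidney library by genotype, where a point is a library, a line the group mean and the open diamond double-mutant library iR2ko_65. Library iR2ko_367 is the highest of the 16 for all 6 transcripts, and iR2ko_65 is the lowest double mutant for all 6.

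The spread inside the double-mutant group exceeded that of the other genotypes. The highest double mutant stood 9.01- to 23.0-fold above the lowest over the 6 members, with a median of 18.2-fold. The same ratio had a median of 2.94-fold in Fcgr2b-/- kidneys, 2.90-fold in Rhbdf2-/- kidneys and 1.57-fold in wild-type kidneys. Library iR2ko_367 was highest of all 16 for 6 of 6 members, and FcR2bko_591 was the highest Fcgr2b-/- library for 6 of 6. Per kilobase of exon, Cd3g had the highest mean level of the 6 in every genotype, at 9.24 CPM per kilobase in double mutants, 2.88 in Fcgr2b-/- kidneys, 1.48 in Rhbdf2-/- kidneys and 1.03 in wild-type kidneys. Cd8a had the lowest mean per kilobase in double mutants and Fcgr2b-/- kidneys, and Cd3e in the other genotypes.

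Set against wild type, double-mutant kidneys had more Cd3g, at 9.89 ± 8.91 CPM in double mutants and 1.10 ± 0.294 CPM in wild type (SD, n = 4 each), a difference of 1.92 ± 0.53 on the log2(CPM+1) scale (SE, adjusted p = 0.0422, limma with Benjamini-Hochberg adjustment over all genes). Nkg7 rose as well, to 6.19 ± 5.72 CPM in double mutants, against 0.657 ± 0.126 CPM in wild type, a log2 difference of 1.73 ± 0.47 (adjusted p = 0.0384). These were 2 of the 6 members, where 4.52% of all genes passed the 0.05 threshold upward and 2.77% downward, and no member passed downward. The median log2 difference of the 6 members was 1.71, against -0.03 for all genes, and each of the 6 had an unadjusted p under 0.05. Lck averaged 11.4 ± 8.53 CPM in double mutants and 1.96 ± 0.497 CPM in wild type, a log2 difference of 1.70 ± 0.52 that missed the threshold (adjusted p = 0.0611). Il2rb (1.75 ± 0.61, adjusted p = 0.0935), Cd3e (1.46 ± 0.49, adjusted p = 0.0825) and Cd8a (1.21 ± 0.43, adjusted p = 0.0978) missed it too.

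The double-mutant result turned on iR2ko_65. It was the lowest double mutant for all 6 members, so leaving it out raises their differences by construction. Without that library all 6 members passed upward against wild type, where 8.88% of genes did, with log2 differences of 2.53 for Cd3g, 2.45 for Il2rb, 2.31 for Lck, 2.27 for Nkg7, 2.02 for Cd3e and 1.61 for Cd8a. Their adjusted p-values ran between 0.000545 for Nkg7 and 0.0113 for Cd8a. Without iR2ko_348, iR2ko_370 or iR2ko_367, without iR2ko_351 or iR2ko_352, or without any single wild-type library, no member passed, and without iR2ko_334 1 did. All 6 members passed an FDR of 0.05 upward in the authors' deposited table for this comparison, where 6.16% of genes did, with log2 fold changes of 1.965 for Cd8a to 3.293 for Nkg7. With limma-voom on recovered reads 0 of 6 passed. Over all fits that left out 1 library, the adjusted p ran between 0.000704 and 0.131 for Cd3g and between 0.000545 and 0.116 for Nkg7.

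Measures of other cells moved with iR2ko_65. Its 12 macrophage markers summed to 431 CPM, against 985, 1447 and 1653 CPM in the other double mutants and 278 to 326 CPM in wild-type kidneys. Its 4 listed dendritic cell markers summed to 19.7 CPM, against 28.0, 41.4 and 64.1 CPM in the other double mutants. The part of these cells in the result was not tested. In whole tissue, fewer cells of a type and less RNA per cell cannot be told apart.

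Against Rhbdf2-/- kidneys, double mutants had all 6 members higher on average, with a median log2 difference of 1.44 against -0.03 for all genes, but none passed the adjusted threshold in limma. All 6 had an unadjusted p under 0.05, and the adjusted values ran between 0.0784 for Cd3g and 0.145 for Cd8a. Of all genes 2.32% passed upward and 1.18% downward. Cd3g differed by 1.69 ± 0.53 on the log2 scale and Nkg7 by 1.41 ± 0.47. Without iR2ko_65, the lowest double mutant for all 6 members, all 6 passed, where 9.07% of genes did. Cd3g was then at 2.30 (adjusted p = 0.00168) and Cd8a at 1.47 (adjusted p = 0.0204). Each member passed in only 1 of the 16 fits that left out 1 library. With limma-voom 0 of 6 passed.

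Against Fcgr2b-/- kidneys, the comparison that adds the loss of Rhbdf2 to the disease model, double mutants had higher means of all 6 members and no member passed the threshold. The median log2 difference of the members was 0.81, against 0.00 for all genes, while 22.5% of genes passed upward and 22.8% downward. The nearest to the threshold was Nkg7, at 6.19 ± 5.72 CPM in double mutants and 1.79 ± 0.998 CPM in Fcgr2b-/- kidneys, a log2 difference of 1.04 ± 0.47 (adjusted p = 0.0803) and the single member with an unadjusted p under 0.05. Cd3g differed by 1.03 ± 0.53 (adjusted p = 0.128) and Cd8a by 0.86 ± 0.43 (adjusted p = 0.114). Lck differed least, by 0.40 ± 0.52 (adjusted p = 0.55). No member separated the groups, where 16.3% of all genes lay wholly higher in double mutants and 17.2% wholly lower.

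Without iR2ko_65 all 6 members passed upward against Fcgr2b-/- kidneys, where 19.4% of genes did. Nkg7 then differed by 1.59 (adjusted p = 0.00269), Cd3g by 1.64 (adjusted p = 0.00535) and Lck by 1.01 (adjusted p = 0.0491). Library iR2ko_65 was the lowest double mutant for these same members, so its omission raises their differences by construction. Each member passed in only 1 of the 16 fits that left out 1 library, and Lck was at -0.0021 without iR2ko_367. In the authors' deposited table, whose contrast runs as Fcgr2b-/- minus double mutant, 3 of 6 members were lower in Fcgr2b-/- at an FDR of 0.05, where 21.9% of genes were. These were Nkg7 at -1.797 (FDR 0.0297), Cd3g at -1.686 (FDR 0.0474) and Cd8a at -1.43 (FDR 0.0402). With limma-voom 0 of 6 passed.

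**Figure D2:**
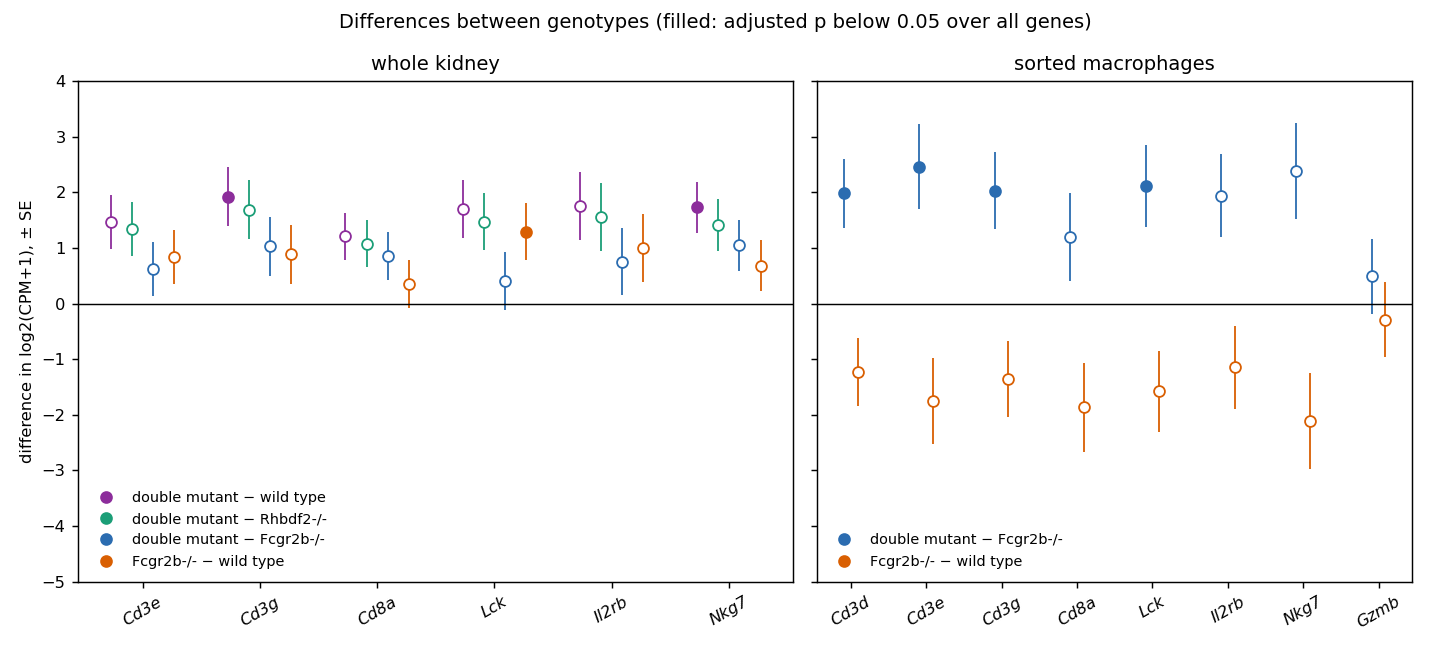
Differences between genotypes on the log2(CPM+1) scale with their standard errors, for whole kidney and for sorted macrophages, where a filled point has an adjusted p under 0.05 over all genes. In kidney all 24 differences are above 0 and 3 are filled, and in macrophages the double mutants lie above and the Fcgr2b-/- cells below their comparison group.

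In Fcgr2b-/- kidneys Lck rose against wild type, to 6.82 ± 3.55 CPM in Fcgr2b-/- kidneys, against 1.96 ± 0.497 CPM in wild type (SD, n = 4 each), a log2 difference of 1.30 ± 0.52 (adjusted p = 0.0424). It was 1 of 6 members to pass, where 29.5% of all genes passed upward and 30.8% downward, so the members' share was below the background. Il2rb followed at 1.00 ± 0.61 (adjusted p = 0.168), Cd3g at 0.89 ± 0.53 (adjusted p = 0.16) and Cd3e at 0.84 ± 0.49 (adjusted p = 0.148). Nkg7 at 0.68 ± 0.47 and Cd8a at 0.35 ± 0.43 were smaller. The median over the members was 0.87, against -0.01 for all genes. The groups did not overlap for Cd3g, Lck and Nkg7, with all Fcgr2b-/- kidneys higher, and 25.3% of all genes did the same.

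With limma-voom 0 of 6 members passed here, and with the 2 groups alone 4 of 6 did, where 27% of genes passed upward. The call on Lck was lost without iR2ko_348, FcR2bko_21, FcR2bko_591, iR2ko_352 or any single wild-type library, where the adjusted p reached up to 0.114. Without iR2ko_65 Lck had an adjusted p of 0.00584, and Cd3e (0.0437) and Cd3g (0.0497) passed as well. That library is in neither group, so the log2 differences were unchanged and only the spread estimated over the 4 genotypes differed.

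In Rhbdf2-/- kidneys no member passed against wild type in limma, and neither did any other gene, with 0% called upward and 0% downward. The median log2 difference of the members was 0.21, and no member had an unadjusted p under 0.05. The limma-voom fit also gave 0 of 6 here and in the test that follows. The difference between the effect of losing Rhbdf2 on the Fcgr2b-/- background and its effect on the wild-type background was above 0 for all 6 members, with a median of 0.64, but 0 of 6 passed and 0 had an unadjusted p under 0.05. Of all genes 13.9% passed upward in this test and 13.9% downward.

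**Figure D3:**
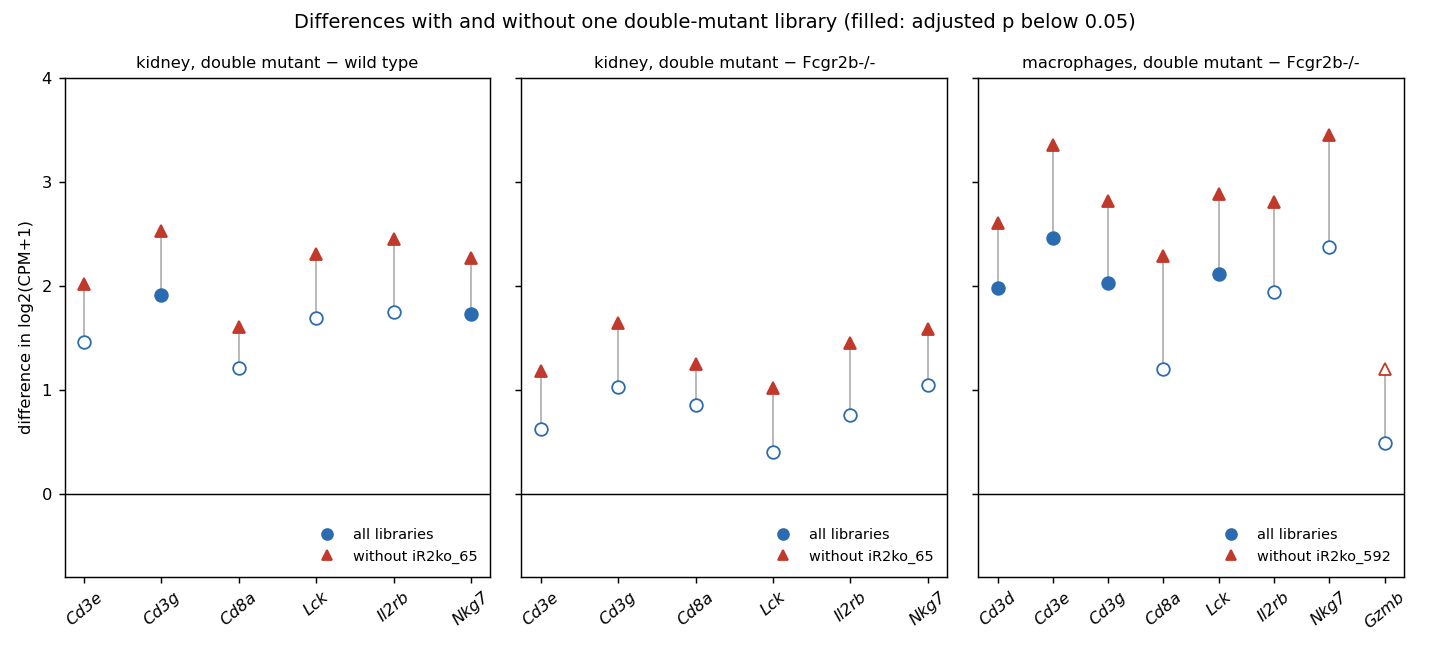
Differences on the log2(CPM+1) scale with all libraries (circles) and without 1 double-mutant library (triangles), where a filled mark has an adjusted p under 0.05. Kidney calls go to 6 of 6 without iR2ko_65 in both comparisons, and macrophage calls to 7 of 8 without iR2ko_592. Each of these libraries is the lowest double mutant of its tissue for all members, so its omission raises the differences by construction.

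Relative to Ptprc, the transcript of CD45 that all leukocytes carry, no genotype lay clear of wild type. Ptprc was chosen after its values were seen. The summed level of the 6 members per 100 CPM of Ptprc was 45.8, 56.2, 115 and 29.9 in double mutants, 35.5, 38.6, 53.4 and 29.4 in Fcgr2b-/- kidneys, 42.2, 51.0, 64.8 and 60.1 in Rhbdf2-/- kidneys and 48.5, 53.1, 52.0 and 53.1 in wild-type kidneys. The genotypes overlapped on this scale, with iR2ko_367 the highest kidney and FcR2bko_594 the lowest. The sum itself, in CPM, was 30.2, 62.6, 116 and 7.52 in double mutants, 29.5, 13.6, 36.0 and 11.6 in Fcgr2b-/- kidneys, 6.62, 6.81, 13.5 and 17.9 in Rhbdf2-/- kidneys and 6.92, 8.89, 9.96 and 8.28 in wild-type kidneys. All double-mutant and Fcgr2b-/- kidneys except iR2ko_65 lay above all wild-type kidneys on the plain scale, while Ptprc averaged 75.8 ± 39.0 CPM in double mutants, 56.3 ± 22.8 in Fcgr2b-/- kidneys, 19.9 ± 7.27 in Rhbdf2-/- kidneys and 16.4 ± 2.07 in wild-type kidneys (SD, n = 4 each).

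Of the 5 other listed genes of the T cell receptor and its co-receptors, 3 rose in double-mutant kidneys against wild type, with a median log2 difference of 1.63, where 4.52% of all genes rose. Cd4, the helper co-receptor, averaged 11.5 ± 7.62 CPM in double mutants and 1.84 ± 0.576 CPM in wild type (1.91 ± 0.43, adjusted p = 0.0205). Cd6, an adhesion receptor of T cells, rose by 1.89 ± 0.53 (adjusted p = 0.0432) and Trac, the constant part of the receptor's alpha chain, by 1.09 ± 0.31 (adjusted p = 0.0455). Of 10 signalling and lineage genes 4 rose. These were Il7r, the IL-7 receptor (1.71 ± 0.39), the adaptors Lat (1.65 ± 0.45) and Skap1 (1.07 ± 0.25), and the phosphatase gene Ptpn22 (1.39 ± 0.38). Of 4 activation genes Havcr2 and Cd44 rose, which macrophages express as well. Il7r, and Cxcr4 named below, also rose in sorted Fcgr2b-/- macrophages against wild type, where no member passed upward. Of 12 macrophage markers 10 rose in double-mutant kidneys against wild type, with a median log2 difference of 2.19. The part of macrophages in these calls was not tested.

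Of 4 cytotoxic genes 3 rose against wild type. Klrk1, the receptor NKG2D, averaged 5.57 ± 4.30 CPM in double mutants and 0.837 ± 0.209 CPM in wild type (1.55 ± 0.43, adjusted p = 0.0426). The protease gene Ctsw rose by 1.65 ± 0.44 and the IL-18 receptor subunit Il18rap by 1.31 ± 0.38. None of 9 genes of the IL-2 and IL-15 pathway passed, and their median was 0.04. Of 7 chemokines and receptors that draw T cells 4 rose. Among them were Cxcl10 (1.86 ± 0.42), Cxcr4 (1.13 ± 0.16) and Cxcl16 (0.88 ± 0.24).

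Cxcl9, an interferon-gamma chemokine of the same list, ranged over 2.33 to 139 CPM in double mutants and 1.38 to 3.72 CPM in wild type and did not pass (2.87 ± 0.88, adjusted p = 0.0622). Of 3 genes listed as granzyme inhibitors Serpinb9, which blocks granzyme B, rose by 0.81 ± 0.19 (adjusted p = 0.0235). The name is that of the list, and whether each of its genes blocks a granzyme was not tested. Without iR2ko_65 the counts against wild type were 5 of 5, 9 of 10, 4 of 4, 4 of 4, 1 of 9, 6 of 7 and 2 of 3 in the order of lists given, where 8.88% of all genes rose, and 0 fell.

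Against Fcgr2b-/- kidneys, the same lists divided, where 22.5% of all genes passed upward and 22.8% downward. Klrk1 was higher in double mutants by 1.16 ± 0.43 (adjusted p = 0.0395), the 1 cytotoxic gene of 4 to pass, a share near that of all genes. Bcl11b, a T cell lineage factor, was higher by 0.72 ± 0.13, the 1 signalling and lineage gene of 10 to pass. Bcl11b averaged 11.3 CPM in double mutants, 6.38 in Fcgr2b-/- kidneys, 8.31 in Rhbdf2-/- kidneys and 8.54 in wild-type kidneys. Unlike the members, it was thus lowest in Fcgr2b-/- kidneys. Cd3e averaged 0.764 CPM in the same wild-type kidneys, far below Bcl11b, and the cells that Bcl11b reads came from were not tested. Of 9 listed genes of the IL-2 and IL-15 pathway, Il15, Il15ra and Stat5b were higher by 0.63 ± 0.11, 0.41 ± 0.10 and 0.45 ± 0.08. Jak3 and Socs2 of the same pathway were lower, at -0.66 ± 0.16 and -0.83 ± 0.28. Cd44 (-1.19 ± 0.45), Cxcr4 (-0.76 ± 0.16), Cxcl16 (-0.61 ± 0.24), Serpinb6a (-0.94 ± 0.10) and Serpinb6b (-0.53 ± 0.18) were lower in double mutants. None of the 5 receptor-complex genes passed. Of 12 macrophage markers 3 fell, with a median of -0.80, a share near the 22.8% of all genes that fell. Without iR2ko_65 1 macrophage marker fell and the median was -0.34. Without that library 4 of 5 receptor-complex, 4 of 10 signalling and 3 of 4 cytotoxic genes passed upward and 0 downward, the IL-2 and IL-15 list had 3 up and 1 down, the chemokines 3 up and 1 down, and the granzyme inhibitors 0 up and 1 down, where 19.4% of all genes passed upward and 20.1% downward. The activation list, with Cd44, then had 0 in either direction.

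In Fcgr2b-/- kidneys against wild type, 2 of 5 receptor-complex genes rose, where 29.5% of all genes rose and 30.8% fell, so the list counts here are to be read against a high background. Thy1, a surface marker of T cells that other cells also carry, averaged 16.2 ± 7.10 CPM in Fcgr2b-/- kidneys and 2.99 ± 0.423 CPM in wild type (2.01 ± 0.52, adjusted p = 0.00385), and Cd4 rose by 1.11 ± 0.43. Il7r rose by 1.87 ± 0.39, Ptpn22 by 1.37 ± 0.38, Rhoh by 1.22 ± 0.37, Skap1 by 1.09 ± 0.25 and Fyn by 0.44 ± 0.18, and Bcl11b fell by 0.37. Of 4 activation genes Cd44, Havcr2 and Il2ra rose, and of 4 cytotoxic genes Il18rap (1.37 ± 0.38) and Ctsw (1.10 ± 0.44) did. In the IL-2 and IL-15 pathway Jak3 rose by 1.16 ± 0.16 and Il15 fell by 0.62, Il15ra by 0.36 and Stat5b by 0.36. Cxcr4 and Cxcl16 of the chemokine list rose, as did all 3 genes listed as granzyme inhibitors, among them Serpinb9 by 0.96 ± 0.19. Macrophage markers moved with these genes, with 11 of 12 higher and 1 lower, while 8 of 8 proximal tubule markers fell, and their part in the result was not tested.

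The genes outside these lists whose levels were most like the mean of the members over the 16 kidney libraries were Ms4a4b (Pearson r = 0.985), Parp9 (0.981), Dtx3l (0.98), Slamf8 (0.978), Psmb8 (0.977) and Ciita (0.975), of 11709 genes compared. Here and for the macrophages below, immunoglobulin and T cell receptor segments, predicted genes and clone names were left out of the comparison. The libraries share their genotypes and lanes, so these values are descriptions. Ms4a4b, a membrane protein of T cells, averaged 11.4 CPM in double mutants, 3.80 in Fcgr2b-/- kidneys, 1.85 in Rhbdf2-/- kidneys and 1.36 in wild-type kidneys. Psmb8, a subunit of the immunoproteasome, averaged 59.7, 19.8, 8.65 and 6.52 CPM in the same order. Ciita, the switch of MHC class II genes, averaged 9.74, 3.13, 2.03 and 1.63 CPM.

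In the sorted macrophages all 8 transcripts were present, and here Fcgr2b-/- cells had the lowest mean of all 8. Double-mutant and Rhbdf2-/- cells had the highest means, except that Cd8a averaged less in double mutants than in wild type, and both groups varied widely. The order of values below is iR2ko_579, iR2ko_823 and iR2ko_592 for double mutants, FcR2bko_847, FcR2bko_595 and FcR2bko_875, then iR2ko_KOa, iR2ko_KOb and iR2ko_KO3 for Rhbdf2-/-, and WTa, WTb and WT2.

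Cd3d levels were 21.8, 13.3 and 3.92 CPM in double mutants, 2.80, 2.05 and 1.27 in Fcgr2b-/- cells, 8.80, 27.0 and 4.61 in Rhbdf2-/- cells and 4.06, 4.83 and 10.7 in wild-type cells. The double mutants all lay above the Fcgr2b-/- cells, and the highest single library was a Rhbdf2-/- one. Cd3e levels were 69.7, 42.0 and 7.51 CPM in double mutants, 7.77, 5.19 and 1.84 in Fcgr2b-/- cells, 18.9, 61.6 and 10.4 in Rhbdf2-/- cells and 13.4, 12.1 and 29.9 in wild-type cells. Library iR2ko_592 was at the upper end of the Fcgr2b-/- range, while the other double mutants were far above it. Cd3g levels were 54.5, 35.3 and 7.61 CPM in double mutants, 7.85, 5.90 and 3.17 in Fcgr2b-/- cells, 15.2, 55.2 and 11.4 in Rhbdf2-/- cells and 11.8, 10.6 and 28.0 in wild-type cells. The pattern was that of Cd3e, with all Fcgr2b-/- cells below all wild-type cells.

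Lck levels were 74.1, 44.4 and 10.6 CPM in double mutants, 12.7, 7.10 and 3.44 in Fcgr2b-/- cells, 21.8, 80.8 and 11.9 in Rhbdf2-/- cells and 16.3, 20.0 and 34.9 in wild-type cells. Library iR2ko_592 again overlapped the Fcgr2b-/- cells and lay below the wild-type cells. Cd8a levels were 11.8, 7.12 and 0.063 CPM in double mutants, 0.886, 0.675 and 1.87 in Fcgr2b-/- cells, 6.16, 21.3 and 3.39 in Rhbdf2-/- cells and 6.11, 4.68 and 9.92 in wild-type cells. The iR2ko_592 value rested on 1 read, against 393 reads in iR2ko_579 and 219 in iR2ko_823, and was the lowest of all 12 libraries. Il2rb levels were 34.3, 24.4 and 3.92 CPM in double mutants, 3.51, 3.60 and 2.78 in Fcgr2b-/- cells, 10.5, 40.9 and 4.10 in Rhbdf2-/- cells and 7.72, 6.38 and 12.2 in wild-type cells. The double mutants lay above all Fcgr2b-/- cells for this receptor chain, by a small margin in iR2ko_592.

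Nkg7 levels were 83.4, 32.6 and 4.68 CPM in double mutants, 6.45, 2.89 and 2.96 in Fcgr2b-/- cells, 16.6, 72.6 and 11.4 in Rhbdf2-/- cells and 12.8, 16.7 and 37.5 in wild-type cells. Libraries iR2ko_579 and iR2ko_KOb were high, and the Fcgr2b-/- cells and iR2ko_592 were low. Gzmb levels were 7.06, 3.43 and 0.359 CPM in double mutants, 2.46, 1.46 and 1.06 in Fcgr2b-/- cells, 1.82, 8.08 and 1.10 in Rhbdf2-/- cells and 1.23, 1.33 and 5.14 in wild-type cells. The genotypes overlapped for granzyme B, and the lowest value was in iR2ko_592 with 10 reads.

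**Figure D4:**
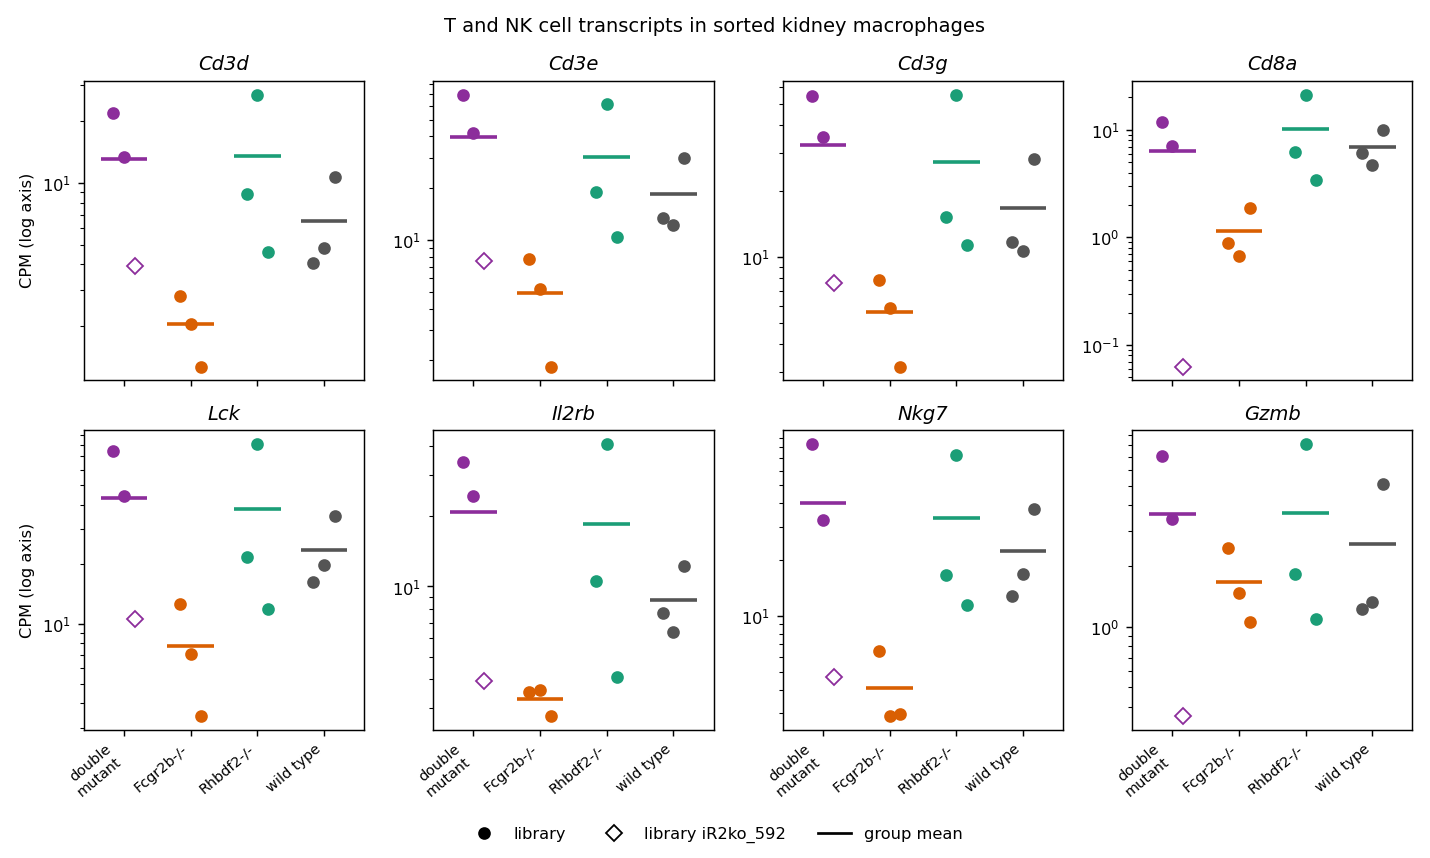
Levels (CPM, log axis) of the 8 transcripts in each library of sorted kidney macrophages by genotype, where a point is a library, a line the group mean and the open diamond double-mutant library iR2ko_592. Library iR2ko_592 is the lowest double mutant for all 8 transcripts, and Fcgr2b-/- cells lie below all wild-type cells for 7 of 8.

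Libraries of a genotype also differed from one another in the sorted cells. The highest library stood a median of 9.03-fold above the lowest in double mutants, with a range of 5.57-fold to 187-fold, the latter for Cd8a. The median was 2.40-fold in Fcgr2b-/- cells. Both medians were below those of kidney, and the medians of the other genotypes were above them. The kidney ratios cover 4 libraries and 6 members and these cover 3 libraries and 8 members. Such a ratio tends to grow with the number of libraries, so the tissues are not compared like for like. Library iR2ko_KOb was the highest Rhbdf2-/- library for 8 of 8 members and iR2ko_KO3 the lowest for 8 of 8, with a median ratio of 6.32-fold. WT2 was the highest wild-type library for 8 of 8, with a median ratio of 2.54-fold between the highest and the lowest. The members were thus high or low together from library to library inside these genotypes. Summed over the 8, their level in CPM was 357, 203 and 38.7 in double mutants, 44.4, 28.9 and 18.4 in Fcgr2b-/- cells, 99.8, 367.5 and 58.3 in Rhbdf2-/- cells and 73.4, 76.7 and 168 in wild-type cells. Per 100 CPM of Ptprc the 6 members shared with the kidney table summed to 23.2, 12.8 and 1.71 in double mutants, 3.31, 2.84 and 2.38 in Fcgr2b-/- cells, 7.36, 24.5 and 3.48 in Rhbdf2-/- cells and 5.00, 4.94 and 9.93 in wild-type cells. On this scale, too, every Fcgr2b-/- library lay below every wild-type library, and iR2ko_592 was the lowest of all. Per kilobase of exon Nkg7 was highest in double mutants (45.8 CPM per kilobase), Rhbdf2-/- cells (38.2) and wild-type cells (25.4), and Cd3g in Fcgr2b-/- cells (5.27).

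Set against Fcgr2b-/- cells, double-mutant cells had more Cd3d, Cd3e, Cd3g and Lck, 4 of the 8 members. Cd3d averaged 13.0 ± 8.96 CPM in double mutants and 2.04 ± 0.765 CPM in Fcgr2b-/- cells (SD, n = 3 each), a log2(CPM+1) difference of 1.98 ± 0.61 (SE, adjusted p = 0.0294, limma). Cd3e averaged 39.7 ± 31.2 CPM in double mutants and 4.93 ± 2.97 CPM in Fcgr2b-/- cells, a difference of 2.46 ± 0.77 (adjusted p = 0.0307). Cd3g differed by 2.03 ± 0.69 (adjusted p = 0.0426) and Lck by 2.11 ± 0.73 (adjusted p = 0.0467). Of all genes 15.8% passed upward and 13.8% downward, and no member passed downward. Nkg7 at 2.38 ± 0.86 (adjusted p = 0.056), Il2rb at 1.94 ± 0.74 (0.0692), Cd8a at 1.20 ± 0.79 (0.284) and Gzmb at 0.49 ± 0.67 (0.63) did not pass. The median over the members was 2.00, against 0.04 for all genes, and the groups did not overlap for Cd3d and Il2rb, where 21.2% of genes lay wholly higher in double mutants.

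Without iR2ko_592 7 of 8 members passed upward, where 11.7% of genes did, with Nkg7 at 3.45 (adjusted p = 0.00688), Cd3e at 3.36 (adjusted p = 0.00608) and Cd8a at 2.29 (adjusted p = 0.0163). Gzmb alone did not, at 1.20 (adjusted p = 0.195). Library iR2ko_592 was the lowest double mutant for all 8 members, so its omission raises their differences by construction. Without iR2ko_579, iR2ko_823, FcR2bko_595 or FcR2bko_875 no member passed, and without iR2ko_KOa, WTa or WTb 2 did. In the authors' deposited table, whose contrast runs as Fcgr2b-/- minus double mutant, 6 of 8 were lower in Fcgr2b-/- at an FDR of 0.05, all but Cd8a and Gzmb, where 15.6% of genes were. With limma-voom on recovered reads 0 of 8 passed, and with a replicate block on the letters that some titles share 2 did. Over all fits that left out 1 library, the adjusted p ran between 0.00987 and 0.108 for Cd3d and between 0.00608 and 0.118 for Cd3e.

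Library iR2ko_592 was low in T and NK transcripts, while its macrophage markers were high and its dendritic cell markers lay between those of the other double mutants. Its 12 macrophage markers summed to 46763 CPM, against 40006 in iR2ko_579 and 40884 in iR2ko_823. Its 7 dendritic cell markers summed to 123 CPM, against 206 and 98.5 CPM. Its 8 members summed to 38.7 CPM, against 357 and 203 CPM.

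Fcgr2b-/- cells had less of 7 members than every wild-type library, Gzmb being the exception, and 31.5% of all genes lay wholly lower in the same way. No member passed the adjusted threshold in limma, where 24.2% of genes passed upward and 28.5% downward, although Cd3e, Cd8a and Nkg7 had an unadjusted p under 0.05. Nkg7 averaged 4.10 ± 2.04 CPM in Fcgr2b-/- cells and 22.3 ± 13.3 CPM in wild type (SD, n = 3 each), a log2 difference of -2.12 ± 0.86 (adjusted p = 0.0559). Cd8a averaged 1.14 ± 0.639 CPM in Fcgr2b-/- cells and 6.91 ± 2.71 CPM in wild type, a difference of -1.87 ± 0.79 (adjusted p = 0.0651). Cd3e differed by -1.75 ± 0.77 (adjusted p = 0.0739), Lck by -1.58 ± 0.73 (0.0876), Cd3g by -1.36 ± 0.69 (0.113), Cd3d by -1.24 ± 0.61 (0.107), Il2rb by -1.15 ± 0.74 (0.212) and Gzmb by -0.29 ± 0.67 (0.74). The median was -1.47, against -0.09 for all genes.

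The number of calls in this comparison differed between fits. Fitted with the 2 groups alone 7 of 8 members passed downward, where 26.3% of genes did. Without iR2ko_592 5 of 8 passed downward, where 29% of genes did, with Cd8a at an adjusted p of 0.00942 and Nkg7 at 0.0144. In both of these fits the log2 differences were unchanged, with Nkg7 at -2.12, and only the estimated spread differed. Without iR2ko_579 2 passed and without iR2ko_KOb 1 did. With limma-voom 0 passed.

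Double-mutant cells did not differ detectably from Rhbdf2-/- cells in any member. The median log2 difference was 0.11, and 0 of 8 passed or had an unadjusted p under 0.05, where 9.2% of genes passed upward and 9.03% downward. Against wild type the median was 0.60 with 7 of 8 above 0, and again 0 of 8 passed or had an unadjusted p under 0.05, where 9.88% of genes passed upward and 8.58% downward. Rhbdf2-/- cells against wild type had a median of 0.36, and 0 of 8 passed or had an unadjusted p under 0.05, where 0.019% of genes passed upward and 0% downward. The difference between the effect of losing Rhbdf2 on the Fcgr2b-/- background and on the wild-type background was above 0 for all 8 members, with a median of 1.50, and 0 of 8 passed or had an unadjusted p under 0.05, where 6.03% of genes passed upward and 5.89% downward. The limma-voom fit also gave 0 of 8 in these comparisons. Without iR2ko_592 0 passed as well, but the values moved. Against Rhbdf2-/- cells the median of Cd3d, Cd3e, Cd3g and Lck was then 1.01, in place of 0.22 with all libraries, and that of Nkg7, Gzmb and Il2rb 1.08, in place of 0.00. Against wild type these medians were 1.42, in place of 0.69, and 1.34, in place of 0.26. Among the other T cell genes, double-mutant cells had 3 of 11 signalling, 5 of 10 activation, 1 of 8 cytotoxic, 1 of 8 IL-2 and IL-15 and 3 of 8 chemokine genes higher than wild type and 0 lower, and 0 of 10 receptor-complex genes and 0 of 3 granzyme inhibitors passed. Tnfrsf4, the co-stimulatory receptor OX40, differed most by p in the activation list (2.49 ± 0.42, adjusted p = 0.00392), and Ccl5 was the cytotoxic list's call (2.21 ± 0.55, adjusted p = 0.0202).

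**Figure D5:**
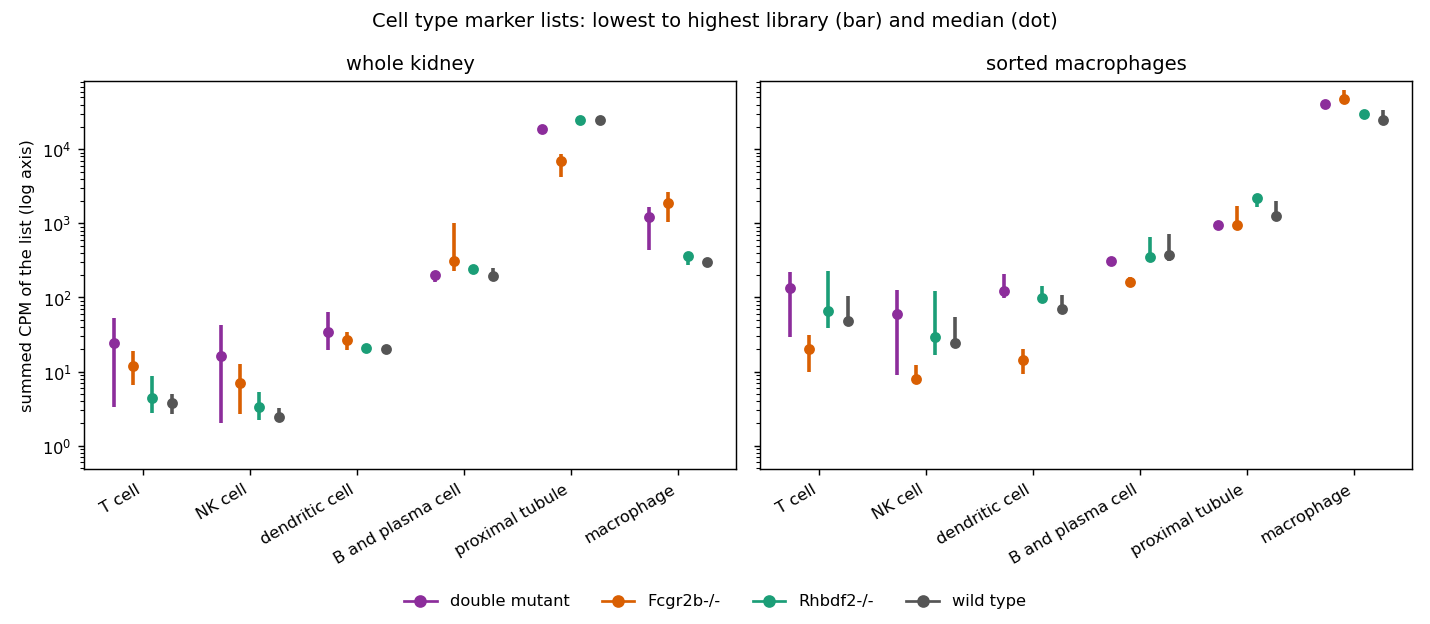
Summed level (CPM, log axis) of 6 cell type marker lists in whole kidney and in sorted macrophages by genotype, where a bar spans the lowest to the highest library and a dot is the median. In sorted Fcgr2b-/- cells the dendritic cell sum, 9.18 to 20.3 CPM, lies below that of the other genotypes.

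Most dendritic, B and plasma cell and proximal tubule markers were lower in sorted Fcgr2b-/- cells than in wild type, where 28.5% of all genes were lower. All 7 listed dendritic cell markers were lower in Fcgr2b-/- cells than in wild type, and they summed to 98.5 to 206 CPM in double mutants, 9.18 to 20.3 in Fcgr2b-/- cells, 83.7 to 143 in Rhbdf2-/- cells and 59.3 to 109 in wild-type cells. Clec9a and Xcr1 were chosen after their values were seen. Clec9a, a receptor of type 1 dendritic cells, averaged 58.6 ± 11.3 CPM in double mutants and 2.60 ± 3.13 CPM in Fcgr2b-/- cells (4.40 ± 0.48, adjusted p = 0.000157), and Xcr1, a chemokine receptor of the same cells, differed by 4.02 ± 0.66. Of 5 listed B and plasma cell markers 4 were lower in Fcgr2b-/- cells than in wild type. Of 8 proximal tubule markers 6 were lower and 1 was higher, and their sums overlapped, at 949.6 to 1691 CPM and 1069 to 2015 CPM in wild type. Of 12 macrophage markers 7 were higher. In double mutants against wild type 3 of 5 B and plasma cell markers were lower, with a median of -1.85, and the proximal tubule median was -0.94 with 0 of 8 passing, while the members' median was above 0. In double mutants against Rhbdf2-/- cells 5 of 8 proximal tubule markers were lower, with a median of -1.99. Of the 6 NK cell markers Nkg7, Gzmb and Il2rb were listed, and Ncr1, Klrb1c and Prf1 were not analysed. The part of these cells in the members' differences was not tested.

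Of 10 receptor-complex genes 6 were higher in sorted double-mutant cells than in Fcgr2b-/- cells, with a median log2 difference of 1.77, where 15.8% of all genes were higher and 13.8% lower. Trbc2, a constant part of the receptor's beta chain, averaged 14.4 ± 11.2 CPM in double mutants and 1.69 ± 1.06 CPM in Fcgr2b-/- cells (2.25 ± 0.63, adjusted p = 0.0195). Cd2 (2.16 ± 0.63), Cd247, the zeta chain (1.76 ± 0.54), Trac (1.95 ± 0.66), Cd5 (1.78 ± 0.61) and Cd4 (2.06 ± 0.26) also rose. Cd4 ranged over 158 to 229.8 CPM in double mutants, 31.3 to 59.8 in Fcgr2b-/- cells, 238 to 414 in Rhbdf2-/- cells and 180.3 to 272 in wild-type cells, without a low value in iR2ko_592.

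Of 11 signalling and lineage genes 4 rose against Fcgr2b-/- cells. Among them Lat, Bcl11b and Ptpn22 rose by 1.91 ± 0.62, 1.69 ± 0.55 and 0.71 ± 0.15. Of 10 activation genes Icos (1.98 ± 0.59), Tnfrsf4 (1.87 ± 0.42) and Ikzf2 (1.57 ± 0.25) rose and Cd44 fell by 0.69. Of 8 cytotoxic genes Klrk1 (2.63 ± 0.62), Ctsw (2.39 ± 0.64) and Ccl5 (1.93 ± 0.55) rose. Without iR2ko_592 the counts of genes that rose were 10 of 10 in the receptor complex, 8 of 11 in signalling, 5 of 10 in activation and 6 of 8 in the cytotoxic list, 3 of 8 in the IL-2 and IL-15 list and 3 of 8 in the chemokine list. No gene of these lists fell without that library, Cd44 and Cxcr4 included, where 11.7% of all genes rose and 9.41% fell.

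In the IL-2 and IL-15 pathway 4 of 8 rose. Il15 itself averaged 41.5 ± 2.91 CPM in double mutants and 17.6 ± 1.26 CPM in Fcgr2b-/- cells (1.19 ± 0.13, adjusted p = 0.000146), and Bcl2, Stat5b and Stat5a rose by 1.12 ± 0.24, 0.65 ± 0.13 and 0.47 ± 0.14. Of 8 chemokines and receptors 4 rose, among them Ccr7, Cxcr3 and Cxcl16, and Cxcr4 fell by 0.95. None of 3 granzyme inhibitors passed.

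In Fcgr2b-/- cells against wild type, where 24.2% of all genes rose and 28.5% fell, the lists divided. Cd4 was the 1 receptor-complex gene of 10 to fall, at 47.3 ± 14.5 CPM in Fcgr2b-/- cells and 218 ± 48.3 CPM in wild type (-2.21 ± 0.26, adjusted p = 4.4e-05). Cd3e averaged 18.5 CPM in the same wild-type cells, far below Cd4, and the cells that Cd4 reads came from were not tested. Gata3 (-1.66 ± 0.46) and Bcl11b (-1.59 ± 0.55) fell, while Il7r (3.38 ± 0.48) and Fyn (1.31 ± 0.22) rose. Ikzf2, Ctsw and Il18rap fell by 1.45, 1.86 and 1.12, and Cd44 and Havcr2 rose by 1.18 ± 0.18 and 0.90 ± 0.21. Il15 fell by 1.14 and Bcl2 by 1.63, Stat5a and Stat5b fell by 0.43 and 0.38, and Il2rg, the chain that pairs with the Il2rb product, rose by 0.87 ± 0.25. Cxcr4 rose by 2.67 ± 0.27, Cxcl12 fell by 1.84 and Serpinb6a rose by 1.03 ± 0.22.

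Over the 12 macrophage libraries the genes outside the lists most like the members' mean were Ms4a4b (Pearson r = 0.981), Ikzf3 (0.972), Sit1 (0.969), Gimap4 (0.966), Tbc1d10c (0.964) and Gimap6 (0.958), of 9937 genes compared, again as descriptions. Ms4a4b, which led the kidney list as well, averaged 47.1 CPM in double mutants, 6.89 in Fcgr2b-/- cells, 37.8 in Rhbdf2-/- cells and 20.7 in wild-type cells. Gimap4, a GTPase of lymphocytes, averaged 58.5, 8.30, 58.4 and 32.1 CPM in the same order.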

How the data were processed

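The deposited tables hold log2 CPM per gene and library, computed by the authors with a small prior count, per the file headers and the values, beside the authors' own log2 fold changes, p-values and FDR for 4 comparisons a tissue and exon lengths in bases (an other unit, listed by the authors). The builds mm10 and GRCm38 come from the submitters' processing notes, and no source used here gives the aligner, the counter or the strand rule. Per the labels' protocols, whole kidney went through TruSeq and sorted cells through SMART-Seq v4, with single reads. The tissues were normalized separately, so tests stay within a tissue.

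Values were taken back to CPM with the prior left in, about 0.0285 CPM in kidney and 0.03 CPM in macrophages. The prior was removed only to recover reads, and low values then came out as whole reads (100% of 4086 kidney and 5185 macrophage low values, within 0.1 read). Low members rest on few reads, such as 17 to 27 reads for Nkg7 in wild-type kidneys and 1 read for Cd8a in macrophage library iR2ko_592, so counting error is part of the spread between libraries there. No 2 libraries held identical values, and 0 other columns of values per sample were present. The 8 members, all lists and the named genes were chosen with earlier results of these data known. The main test was limma 3.58.1 in R 4.3.3 with an intensity trend on log2(CPM+1), with the 4 genotypes of a tissue in 1 fit, Benjamini-Hochberg adjustment over all listed genes and a threshold of 0.05. A fold on this scale understates the change of low genes. The planned count test did not apply, because the tables hold log2 CPM. The fit recovered planted changes in simulated counts with the same spread in every genotype. The wider spread of the double mutants was not simulated, so this is no check of the calls on these members. Alternatives were a pseudocount of 0.25, a filter of 1 CPM, other scalings, the 2 groups alone, limma-voom on the recovered reads, the authors' FDR, a replicate block and leaving out each library.

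Named genes were all 8 members, up to 5 genes of each list with the smallest p, every called gene of a list with 5 or fewer calls, and the 6 genes outside the lists with the highest Pearson correlation with the members' mean z-score, among genes averaging at least 1 CPM. Immunoglobulin and T cell receptor segments, predicted genes and clone names were left out of that ranking. Ptprc, Clec9a and Xcr1, Fyn in kidney and Cd5 in macrophages were named after their values were seen. Some genes of these lists that the rule names are not reported here.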

Additional observations from a re-analysis of the deposited data

Results flagged for a closer look

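For 3 members the difference of Fcgr2b-/- from wild type ran in opposite directions in the 2 sample types, with no overlap between the groups in either. The same held for 5.95% of the 9884 genes listed for both sample types, wholly higher in kidney and wholly lower in macrophages. Cd3g was higher in Fcgr2b-/- kidneys, by 0.889 on the log2(CPM+1) scale, and lower in sorted Fcgr2b-/- macrophages, at -1.3611. Lck was higher in kidney, by 1.2951, and lower in macrophages, at -1.5755. Nkg7 was higher in kidney, by 0.6838, and lower in macrophages, at -2.1181. The difference between the sample types was not tested, because they were normalized separately, and only the kidney value of Lck passed the threshold. Among 24 sets of 4 kidney libraries (6 members in 4 genotypes), 0 held a library far from the others by Dixon's rule, so iR2ko_65 was not marked by it.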

How the results depend on the processing

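All counts here are members past the 0.05 threshold, and the differences of the described comparisons kept their sign under every setting that kept all libraries. In kidney, double mutants against wild type gave 2 of 6 higher, and 0 with the 2 groups alone, 1 with listed genes scaled to an equal total, 0 with limma-voom and 6 by the authors' FDR. Fcgr2b-/- against wild type gave 1, and 4 with the 2 groups alone and 0 with limma-voom. Double mutants against Fcgr2b-/- gave 0, and 3 by the authors' FDR. In macrophages, double mutants against Fcgr2b-/- gave 4 of 8 higher, and 2 with the 2 groups alone, 2 with listed genes scaled to an equal total, 0 with limma-voom, 2 with a replicate block and 6 by the authors' FDR. Fcgr2b-/- against wild type gave 0 lower, and 1 with log2(CPM+0.25) and 7 with the 2 groups alone. With the 2 groups alone the log2 differences were unchanged and only the estimated spread differed. The cause of the other changes was not tested.

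Leaving out 1 library at a time gave 0 to 6 in kidney for double mutants against wild type, against Rhbdf2-/- and against Fcgr2b-/-, and 0 to 3 for Fcgr2b-/- against wild type. In macrophages it gave 0 to 7 for double mutants against Fcgr2b-/- and 0 to 5 lower for Fcgr2b-/- against wild type. The other comparisons gave 0 members under every setting run. A sign turned for Lck in kidney double mutants against Fcgr2b-/- (-0.0021 without iR2ko_367, up to 1.0134), and for Gzmb in macrophages, against Fcgr2b-/- in double mutants (-0.0818 without iR2ko_579, up to 1.2018) and against wild type in Fcgr2b-/- (-0.5441 to 0.1875, the higher value without WT2), none of them a call. Over single members, 253 of the values with all libraries stayed on their side of the threshold, 20 moved past it and 17 fell back.

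Scaling listed genes to an equal total moved the median of all genes by 0.20 for kidney Fcgr2b-/- against wild type (71.7% of calls higher, against 48.9%), by -0.12 for double mutants against Fcgr2b-/- (31.9%, against 49.6%) and by -0.15 for macrophage double mutants against wild type (29.7%, against 53.5%). The split of calls also moved for kidney double mutants against wild type (83.9%, and 49.5% with limma-voom, against 62.0%), kidney double mutants against Rhbdf2-/- (88.5%, 77.2% with median-of-ratios scaling and 54.5% with limma-voom, against 66.4%), the kidney difference of effects (35.5%, against 50.0%, with a shift of -0.10), macrophage double mutants against Rhbdf2-/- (37.5%, against 50.5%) and macrophage double mutants against Fcgr2b-/- (39.9%, against 53.4%). With limma-voom 237 genes were higher and 242 lower in kidney double mutants against wild type, against 557 and 341, and 42 and 35 against Rhbdf2-/-, against 286 and 145. The replicate block used the letters a and b that wild-type and Rhbdf2-/- macrophage titles share, and the labels do not say that the letters pair libraries.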
